A study of Mus musculus with 27 samples.

Results

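Otx2, Pou3f1, Foxd3, Tcf15 and Utf1 are 5 genes associated with formative pluripotency, and their rows were taken by symbol from every table of a study of mouse formative pluripotent stem cells (fPSCs). All 5 were found among the 23604 genes used of the bulk FPKM table (mapped fragments by kilobase of transcript, corrected for library size, so a level per length), and all 5 were among the 18299 genes of the single-cell tables. The bulk samples were 2 mESC, 2 EpiLC and 2 EpiSC libraries, 1 library each of Epiblastoids at days 2, 3 and 4, 1 library of fPSCs at passage P1, 7 fPSC libraries at P10 or later, and 2 libraries of fPSCs derived from E5.5 or E6.5 epiblast. All were labelled wild type. The mESCs (naive embryonic stem cells) grew in 2i/LIF, and the EpiLCs (epiblast-like cells) in N2B27 to which bFgf2 (12 ng/ml), Activin A (20 ng/ml) and KSR (1%) had been added. The EpiSCs (primed epiblast stem cells) grew on mouse feeder cells in 15% KSR with both factors and 5 µM XAV939, an inhibitor of Wnt signalling. Epiblastoids were the cells grown in Matrigel in the EpiLC medium, and fPSCs were grown in Matrigel with Activin A, bFgf2 and XAV939. The 7 fPSC libraries were P10, P20, P30, CMT P11, 46C P24, BVSC P14 and ROSAmTmG P12, where the letters name parental ES cell lines. By the study's text P10, P20 and P30 are passages of CMT, and CMT P11 is a cryopreserved passage of it. Those libraries therefore share a line and are not independent of each other, though the comparisons below count all 7 as separate libraries.

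Otx2 is a homeodomain factor, and Pou3f1 (Oct6) is a POU factor related to the core factor Pou5f1 (Oct4). Both are known for directing enhancer use as naive cells enter the formative state, the interval between naive and primed pluripotency in which the epiblast becomes competent for germ layer and germ cell formation. Foxd3 is a forkhead factor needed for the epiblast and known for preparing and repressing enhancers. Tcf15 is a bHLH factor that binds DNA with E proteins such as Tcf3 (E2A), is held in check by Id proteins, and is known for priming ES cells. Utf1 is a chromatin-associated protein of pluripotent cells.

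The libraries differed in preparation. The labels give a total RNA-seq protocol for 15 of the 19 bulk libraries and NEBNext Ultra for the other 4, which were CMT P11, 46C P24, BVSC P14 and ROSAmTmG P12. Every mESC, EpiLC, EpiSC, Epiblastoid and epiblast-derived library followed the former, and for 46C, BVSC and ROSAmTmG line and protocol cannot be told apart. Between 10034 and 10933 genes reached 1 FPKM in a library, and read depth is unknown from FPKM values. The summed level of 10 fibroblast markers was 845 and 1071 FPKM in the EpiSCs and at most 326 FPKM elsewhere, and the part of feeder cells in the EpiSC results was not tested. Of 6 neuroectoderm markers the sum was 80.7 and 91.2 FPKM in EpiSCs and 4.08 to 22.4 FPKM elsewhere. The summed level of 8 endoderm markers was 467 FPKM in day 4 Epiblastoids, 368 FPKM in 46C P24, 217 and 141 FPKM in the E5.5 and E6.5 lines, 10.2 to 96.2 FPKM in the other 6 fPSC libraries, and 0.504 to 14.8 FPKM in all other libraries. In bulk samples, fewer cells of a type and less RNA per cell cannot be told apart.

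The members lie at 5 loci of the NCBIM37 (mm9) mouse genome. Otx2 spans 49277354 to 49287319 on the minus strand of chromosome 14, with 7 annotated transcript starts. Pou3f1 spans 124334896 to 124337899 and Foxd3 99322990 to 99325362 on the plus strand of chromosome 4. Tcf15 spans 151969297 to 151974833 on the plus strand of chromosome 2, and Utf1 spans 147129688 to 147131011 on the plus strand of chromosome 7. The stretches just upstream of the gene starts of Otx2, Foxd3 and Utf1 are shown because the marks and methylation of fPSCs described further on were read across them. They are RefSeq promoter sequences (GRCm38.p6), matched letter for letter to NCBIM37, with the CpG dinucleotides, the sites at which DNA is methylated, in capitals. They cover chr14:49287320-49287569 (minus strand), chr4:99322740-99322989 (plus strand) and chr7:147129505-147129687 (plus strand).
Otx2: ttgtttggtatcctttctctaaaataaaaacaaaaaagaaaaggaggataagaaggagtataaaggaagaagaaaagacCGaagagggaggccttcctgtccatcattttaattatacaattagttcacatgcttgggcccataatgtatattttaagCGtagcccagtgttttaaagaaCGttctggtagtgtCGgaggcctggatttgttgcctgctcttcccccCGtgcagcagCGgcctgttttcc
Foxd3: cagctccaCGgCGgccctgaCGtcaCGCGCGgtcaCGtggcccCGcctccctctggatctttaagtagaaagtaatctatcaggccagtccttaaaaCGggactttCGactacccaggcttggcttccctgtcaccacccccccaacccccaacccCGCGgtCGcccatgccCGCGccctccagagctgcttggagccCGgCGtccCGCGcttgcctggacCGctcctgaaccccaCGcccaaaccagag
Utf1: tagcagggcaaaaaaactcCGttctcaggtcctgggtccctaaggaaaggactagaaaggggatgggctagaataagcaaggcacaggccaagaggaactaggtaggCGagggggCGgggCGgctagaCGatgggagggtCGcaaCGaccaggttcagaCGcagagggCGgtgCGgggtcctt
The Otx2 stretch held 6 CpGs in 250 bases at 42% G or C, the Foxd3 stretch 21 in 250 at 65.6%, and the Utf1 stretch 10 in 183 at 59.6%. Over the 32851 RefSeq promoters cut to the same 250 bases before the start, the medians were 6 CpGs and 52.4% G or C. The motifs searched on both strands were the TATA box (TATAAA), the CCAAT box (CCAAT), the GC box (GGGCGG), the octamer of POU factors (ATGCAAAT), a homeodomain site of the Otx type (TAATCC) and an E-box of bHLH factors (CACGTG). A match counted wherever it lay in the stretch, so it does not show that the sequence acts as that element. The Otx2 stretch held TATAAA, as did 12.4% of those promoters. The Foxd3 stretch held CACGTG, as did 6.02%, and the Utf1 stretch held GGGCGG, as did 32.7%.

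Across the bulk libraries Otx2, Pou3f1 and Utf1 were higher in EpiLCs than in mESCs, all 5 members were lower in EpiSCs than in EpiLCs, and fPSCs carried Otx2, Foxd3 and Utf1 above EpiSC levels while Tcf15 was lower in fPSCs than in mESCs and EpiLCs. The comparisons used limma on log2(FPKM + 1), and a gene was called when the p-value adjusted over all genes tested was under 0.05 and the fold at least 1.5. Of the 5 members, 3 were called in EpiLCs against mESCs, where 29.6% of the 12513 genes tested were called. In EpiSCs against mESCs 4 members were called, beside 47.8% of all genes, with 2 higher (23.1% of all genes) and 2 lower (24.7%). In EpiSCs against EpiLCs all 5 were called lower, beside 15.5% of all genes called lower, 20.4% called higher and 35.9% called in either direction. In fPSCs 4 members were called higher than in mESCs and 1 lower, beside 17.3% and 23.0% of all genes, so that all 5 moved where 40.3% of genes did. Against EpiSCs 3 were called higher in fPSCs, beside 13.3% of all genes called higher and 32.3% called in either direction, and 2 were not called. Against EpiLCs 2 were called lower in fPSCs, beside 8.15% of all genes called lower, 5.66% called higher and 13.8% called in either direction, and 3 were not called. The comparisons share libraries, since each of the mESC, EpiLC, EpiSC and fPSC groups enters 3 of the 6, so they are not independent of each other. The labels do not say that replicates came from separate cultures, so the p-values measure the spread between these libraries.

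**Figure D1:**
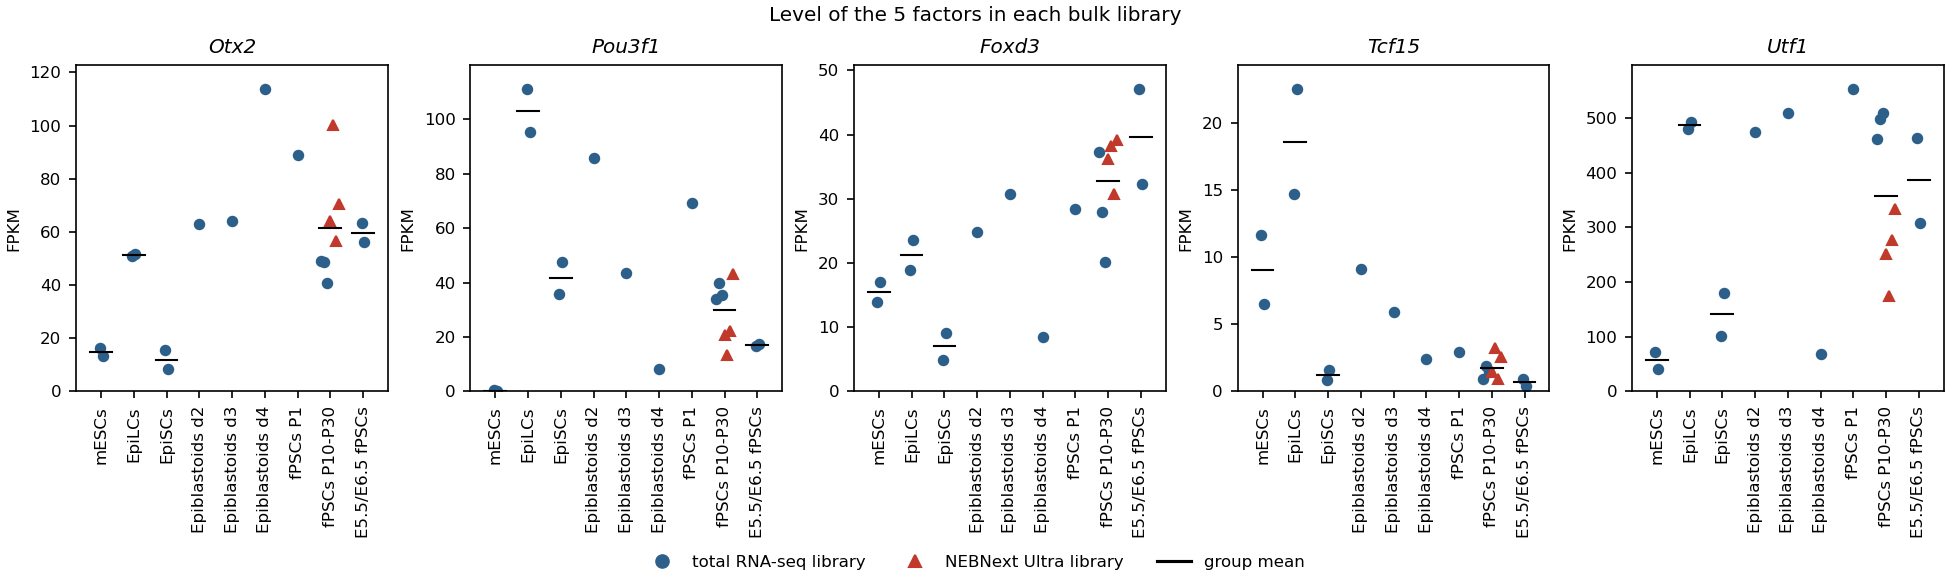
FPKM of each member (vertical axis, linear, 1 panel a gene) in every bulk library, with circles for total RNA-seq libraries, triangles for NEBNext Ultra libraries and a line at the mean of each group of at least 2 libraries. Pou3f1 sits near 0 in mESCs and highest in EpiLCs, Tcf15 is high in mESCs and EpiLCs and low in every fPSC and EpiSC library, and Pou3f1, Foxd3, Tcf15 and Utf1 are lower at Epiblastoid day 4 than at day 3 while Otx2 is higher.

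**Figure D2:**
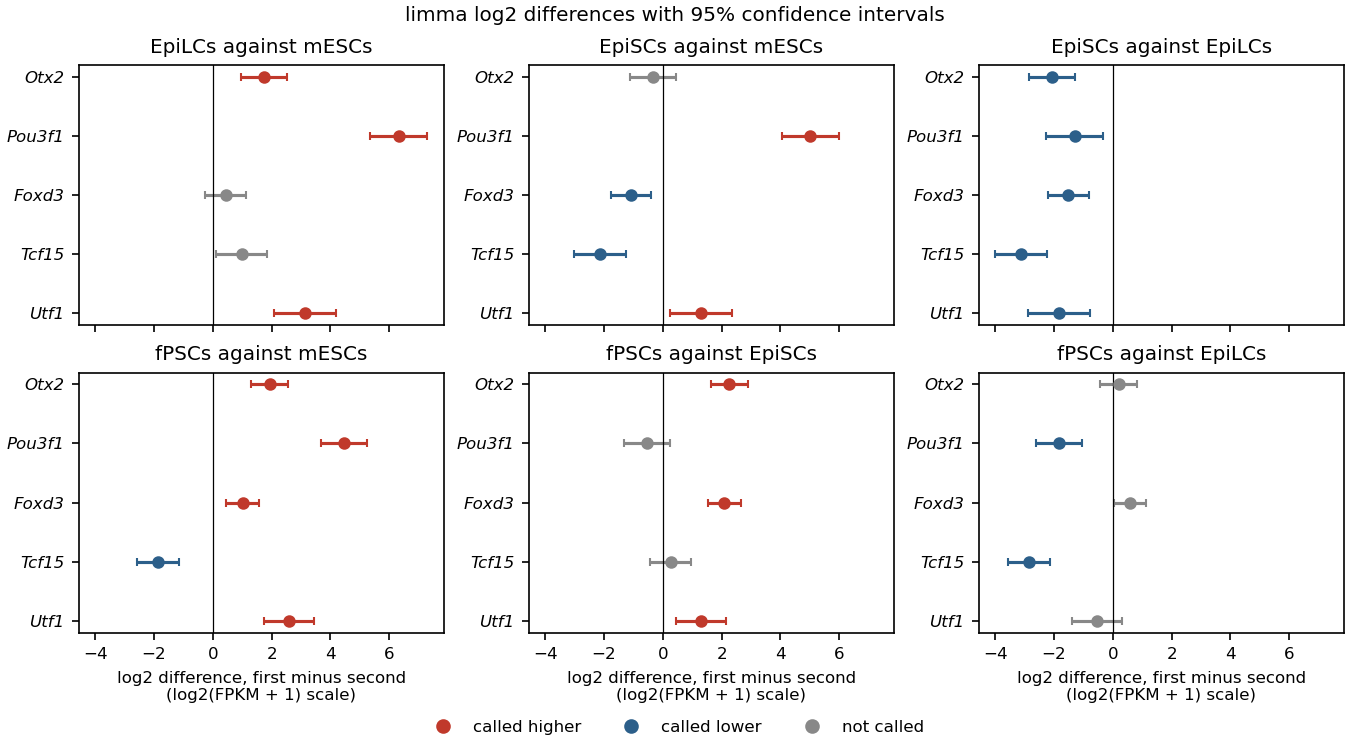
limma log2 difference of each member, first group minus second, on the log2(FPKM + 1) scale (horizontal axis), with 95% confidence intervals, in the 6 comparisons of cell states. Red points were called higher, blue points called lower and grey points not called, and all 5 members lie left of 0 in EpiSCs against EpiLCs.

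Otx2 was at 16.2 and 13.3 FPKM in mESCs, 50.8 and 51.6 FPKM in EpiLCs, and 15.4 and 8.60 FPKM in EpiSCs. The EpiLC libraries lay above all 4 others, and the mESC and EpiSC ranges overlapped. Otx2 was 3.33-fold higher in EpiLCs than in mESCs (log2 difference 1.74 ± 0.36 SE, limma adjusted p = 0.00269) and 4.16-fold lower in EpiSCs than in EpiLCs (-2.06 ± 0.36, adjusted p = 0.000752). The EpiSCs and mESCs differed by -0.32, with a 95% interval of -1.10 to 0.46. In fPSCs the lowest Otx2 value was 40.9 FPKM in P30, the median 56.7 FPKM and the highest 100.2 FPKM in 46C P24. All 7 fPSC libraries lay above all mESC and EpiSC libraries. The log2 differences were 1.94 ± 0.29 against mESCs (adjusted p = 0.000129) and 2.26 ± 0.29 against EpiSCs (adjusted p = 5.97e-05), while the difference from EpiLCs was 0.20 with an interval of -0.42 to 0.83.

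Otx2 differed between the fPSC libraries made with each protocol, and these sets differ in line and passage too. The 3 total RNA-seq libraries held 46.2 ± 4.54 FPKM (SD) and the 4 NEBNext libraries 72.9 ± 19.1 FPKM, without overlap. The log2 difference was 0.62 ± 0.18 (limma adjusted p = 0.0245), where 29.7% of 10930 genes were called (20.8% higher and 8.93% lower) and the median of all genes was 0.19. Within the CMT line, with P10, P20 and P30 taken as CMT from the study's text, it was 0.47. The NEBNext side there was the single cryopreserved library CMT P11. Without P10, P20, P30 or 46C P24 in turn the difference over the other fPSC libraries ranged from 0.46 to 0.66 and was not called. With only the total RNA-seq fPSCs, the difference from EpiLCs turned to -0.15, while the differences from mESCs (1.58) and EpiSCs (1.90) were still called. The fPSC library highest in Otx2, 46C P24, was also highest in the summed endoderm markers, and Otx2 has roles in anterior endoderm as well as epiblast. The part of endoderm cells in the Otx2 level of 46C P24 was not tested. Without 46C P24 and CMT P11 the Otx2 difference from mESCs was 1.76 and that from EpiSCs 2.08, both called. That fit does not test the part of endoderm cells, since the fPSC libraries kept still held endoderm marker sums of 10.2 to 73.8 FPKM.

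Otx2 was at 62.8, 64.2 and 113.6 FPKM in Epiblastoids at days 2, 3 and 4. The day 4 library was the highest of all 19, and it held the highest sum of endoderm markers, with Cer1 at 295 FPKM, Sox17 at 68.7 FPKM and Foxa2 at 52.8 FPKM against 0, 0.145 and 0.558 FPKM at day 3. The part of endoderm cells in the Otx2 level was not tested. Otx2 was at 89.0 FPKM in fPSCs P1, where the endoderm markers summed to 0.504 FPKM, and at 63.2 and 56.3 FPKM in the E5.5 and E6.5 lines, within the fPSC range. Of the paralogs, Otx1 reached at most 0.589 FPKM and Crx 0.0244 FPKM in any library. The opposite-strand gene Otx2os1 reached 0.0222 FPKM.

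Pou3f1 showed the largest fold range of the members between mESCs and EpiLCs. It was at 0.467 and 0.149 FPKM in mESCs, 110.9 and 95.2 FPKM in EpiLCs, and 35.7 and 47.7 FPKM in EpiSCs, with no overlap between any pair of these groups. On the log2(FPKM + 1) scale, which understates the change of a gene this low, Pou3f1 was 6.32 ± 0.45 higher in EpiLCs than in mESCs (limma adjusted p = 3.3e-07) and 5.03 ± 0.45 higher in EpiSCs (adjusted p = 1.34e-06). It was 2.45-fold lower in EpiSCs than in EpiLCs (-1.30 ± 0.45, adjusted p = 0.0384). That last call was lost when any 1 EpiLC or EpiSC library was left out (adjusted p from 0.0859 to 0.178), with a pseudocount of 0.1 (0.063) and with no filter on low values (0.0598). In fPSCs Pou3f1 ran from 13.3 FPKM in 46C P24 over a median of 34.0 FPKM to 43.2 FPKM in ROSAmTmG P12. Every fPSC library lay below both EpiLC libraries and above both mESC libraries. The log2 difference was 4.48 ± 0.36 from mESCs (adjusted p = 4.65e-07) and -1.85 ± 0.36 from EpiLCs (adjusted p = 0.00362). Without EpiLC replicate 1 the difference from EpiLCs was -1.74 and not called (adjusted p = 0.0645). From EpiSCs it was -0.55 with an interval of -1.33 to 0.23, and the ranges overlapped. With only the total RNA-seq fPSCs the 3 differences were 4.85, -1.47 and -0.18, with the same calls.

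Pou3f1 was at 85.6, 43.5 and 8.29 FPKM in Epiblastoids at days 2, 3 and 4, so that the day 4 library held 10.3-fold less than the day 2 library by FPKM. It was at 69.4 FPKM in fPSCs P1 and at 16.6 and 17.6 FPKM in the E5.5 and E6.5 lines. The latter 2 lay below the total RNA-seq fPSCs, which held 34.0 to 40.0 FPKM, and within the range of the NEBNext fPSCs. With protocol as a covariate the log2 difference of the epiblast-derived lines was -1.05 ± 0.36 (unadjusted p = 0.0156 in limma), and it was not called (adjusted p = 0.251). The paralogs Pou3f2, Pou3f3 and Pou3f4 reached at most 1.14, 0.455 and 1.05 FPKM in any library.

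Foxd3 had its lowest group mean in EpiSCs. It was at 13.9 and 17.01 FPKM in mESCs, 18.9 and 23.7 FPKM in EpiLCs, and 4.93 and 9.09 FPKM in EpiSCs. The mESC and EpiLC libraries did not overlap, but the log2 difference of 0.44 ± 0.32 was not called (limma adjusted p = 0.338). Foxd3 was lower in EpiSCs than in mESCs (-1.08 ± 0.32, adjusted p = 0.0139) and than in EpiLCs (-1.52 ± 0.32, adjusted p = 0.00276). The call against mESCs was lost without mESC replicate 2 (adjusted p = 0.0946) or EpiSC replicate 1 (adjusted p = 0.148). In fPSCs Foxd3 ran from 20.2 FPKM in P30 over a median of 36.2 FPKM to 39.1 FPKM in ROSAmTmG P12, above all mESC and EpiSC libraries. It was 4.28-fold higher than in EpiSCs (2.098 ± 0.26, adjusted p = 3.98e-05) and 2.02-fold higher than in mESCs (1.02 ± 0.26, adjusted p = 0.00597). The call against mESCs was lost without mESC replicate 1 (0.88, adjusted p = 0.0848). Against EpiLCs the difference of 0.58 had an interval of 0.02 to 1.14 and was not called (adjusted p = 0.161). It was called with the NEBNext fPSCs alone (0.74, adjusted p = 0.0342) or without fPSC P30 (0.69, adjusted p = 0.0483). With the total RNA-seq fPSCs alone Foxd3 differed by 0.81 from mESCs, 1.89 from EpiSCs and 0.37 from EpiLCs, with the first 2 called.

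Foxd3 was at 24.9, 30.7 and 8.51 FPKM in Epiblastoids at days 2, 3 and 4, at 28.4 FPKM in fPSCs P1, and at 47.0 and 32.3 FPKM in the E5.5 and E6.5 lines. The E5.5 line held the highest value of the 19 libraries. Foxd1, Foxd2 and Foxd4 reached at most 0.242, 0.323 and 1.70 FPKM. Foxd3 is also used in the neural crest, and the 6 markers of that lineage summed to 1.69 to 2.82 FPKM in the 7 fPSC libraries, 4.01 and 4.57 FPKM in mESCs and 25.8 and 28.3 FPKM in EpiSCs. Of the 4 tested, Ets1 (0.62) and Sox9 (1.16) were called higher in fPSCs than in mESCs and Tfap2a (-2.19) lower, beside 17.3% and 23.0% of all genes.

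Tcf15 was the only member called lower in fPSCs than in mESCs. It was at 11.6 and 6.49 FPKM in mESCs, 14.7 and 22.5 FPKM in EpiLCs, and 0.852 and 1.63 FPKM in EpiSCs, and these 3 groups did not overlap. The EpiLC increase of 0.98 ± 0.40 was not called (limma adjusted p = 0.0844), and it was called under upper-quartile scaling (1.109, adjusted p = 0.0452). Tcf15 was lower in EpiSCs than in mESCs (-2.14 ± 0.40, adjusted p = 0.000803) and 8.70-fold lower than in EpiLCs (-3.12 ± 0.40, adjusted p = 6.56e-05). In fPSCs Tcf15 ran from 0.895 FPKM in P10 over a median of 1.47 FPKM to 3.23 FPKM in 46C P24. All 7 libraries lay below every mESC and EpiLC library and overlapped the EpiSCs. The difference was -1.87 ± 0.32 from mESCs (adjusted p = 0.000424) and -2.85 ± 0.32 from EpiLCs (7.21-fold, adjusted p = 4.61e-05). From EpiSCs it was 0.27 with an interval of -0.43 to 0.97. The fPSCs of the total RNA-seq protocol alone gave -2.04, -3.02 and 0.10, with the same calls.

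Tcf15 was at 9.14, 5.94 and 2.40 FPKM in Epiblastoids at days 2, 3 and 4. It was at 2.93 FPKM in fPSCs P1, within the range of the 7 later libraries. The E5.5 and E6.5 lines held 0.942 and 0.396 FPKM. Of its DNA-binding partners and inhibitors, 7 were tested. In fPSCs against mESCs Tcf12, Id2 and Id3 were called higher, beside 17.3% of all genes, and Tcf4 and Id4 lower, beside 23.0%. Tcf3 was at 77.0 ± 18.2 FPKM (SD, n = 7) and 75.8 ± 5.18 FPKM (n = 2), a difference of -0.01 that was not called. Against EpiLCs Id2 (1.22, limma adjusted p = 0.0193) and Id3 (2.16, adjusted p = 0.0215) were higher in fPSCs, beside 5.66% of all genes called higher. Against EpiSCs the differences of Id2 and Id3 were 0.31 and -0.12 and were not called. Tcf15 is also active in paraxial mesoderm, and the 6 markers of that tissue summed to 0.342 to 1.34 FPKM in the 7 fPSC libraries and 8.71 FPKM in day 4 Epiblastoids, with none reaching 1 FPKM in a fPSC library.

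Utf1 had the highest FPKM of the 5 members in every library except day 4 Epiblastoids, where Otx2 was higher. It was at 72.9 and 40.7 FPKM in mESCs, 479 and 493 FPKM in EpiLCs, and 102 and 179 FPKM in EpiSCs, and the 3 groups did not overlap. Utf1 was 8.78-fold higher in EpiLCs than in mESCs (3.13 ± 0.49, limma adjusted p = 0.000325), 2.46-fold higher in EpiSCs than in mESCs (1.30 ± 0.49, adjusted p = 0.0424), and 3.57-fold lower in EpiSCs than in EpiLCs (-1.84 ± 0.49, adjusted p = 0.0108). The EpiSC call against mESCs was lost without mESC replicate 2 (adjusted p = 0.273), without EpiSC replicate 2 (0.265) or with no filter on low values (0.0671). The call against EpiLCs was lost without EpiLC replicate 2 (adjusted p = 0.0575) or EpiSC replicate 1 (0.0976). In fPSCs Utf1 ran from 175.0 FPKM in 46C P24 over a median of 334 FPKM in ROSAmTmG P12 to 508 FPKM in P30. The fPSCs lay above all mESC libraries and overlapped the EpiSC and EpiLC ranges. The difference was 2.60 ± 0.39 from mESCs (adjusted p = 0.00014), 1.30 ± 0.39 from EpiSCs (adjusted p = 0.0212) and -0.54 from EpiLCs, with an interval of -1.38 to 0.31. The call against EpiSCs was lost without EpiSC replicate 1 (0.90, adjusted p = 0.237) or replicate 2 (1.70, adjusted p = 0.0518).

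Utf1 had the largest estimated difference of the 5 members between the fPSC libraries of each protocol, which differ in line and passage too. The total RNA-seq fPSCs held 489 ± 25.2 FPKM (SD, n = 3) and the NEBNext fPSCs 259 ± 66.0 FPKM (n = 4), without overlap, a difference of -0.95 ± 0.20 (limma adjusted p = 0.00539). Within the CMT libraries it was -0.96, where the NEBNext side was the single cryopreserved library CMT P11. With the total RNA-seq fPSCs alone Utf1 differed from EpiLCs by 0.01 instead of -0.54, from EpiSCs by 1.84 and from mESCs by 3.14. Utf1 was at 473, 509 and 68.6 FPKM in Epiblastoids at days 2, 3 and 4 and at 552 FPKM in fPSCs P1, the highest of the 19 libraries. In the E5.5 and E6.5 lines it was at 463 and 309 FPKM, and the E6.5 value lay below all 3 total RNA-seq fPSC libraries.

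Between Epiblastoid days 3 and 4, each a single library with no replicate check, Utf1 fell 7.41-fold by FPKM, Pou3f1 5.25-fold, Foxd3 3.61-fold and Tcf15 2.48-fold, while Otx2 rose 1.77-fold. Between these libraries 8.22% of the 11357 genes compared fell by at least 1 on the log2(FPKM + 1) scale and 7.85% rose by as much. From day 2 to day 3 the member log2 ratios lay between -0.96 for Pou3f1 and 0.29 for Foxd3. From fPSCs P1 to P10, again 1 library each, Pou3f1 changed by -1.01, Tcf15 by -1.05, Otx2 by -0.85, Utf1 by -0.26 and Foxd3 by 0.39. Between these libraries 4.38% of the 10850 genes compared fell by at least 1 and 3.81% rose by as much. Tcf15 was low in both, at 2.93 FPKM in P1 and 0.895 FPKM in P10. The E5.5 and E6.5 lines, fitted against the 7 fPSC libraries with protocol as a covariate, gave 0 of 5 members called in limma, beside 0.894% of 11074 genes (0.415% higher and 0.479% lower). At an unadjusted p under 0.05 only Pou3f1 passed there, and no other tool was run.

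Of the wider formative program, 15 of 16 other genes were called higher when fPSCs were set against mESCs, beside 17.3% of all genes. Their median log2 difference was 3.26, beside -0.04 over all genes tested. The most abundant were Pim2 (908.6 FPKM in fPSCs, 6.44), the de novo DNA methyltransferase Dnmt3b (478 FPKM, 4.99) and the growth factor gene Fgf5 (92.9 FPKM, 6.49), while Etv5 was at 105.8 and 103.5 FPKM and was not called. All 11 naive factors were called lower, beside 23.0% of all genes, with a median of -5.15. Among them were Nanog (68.8 against 315 FPKM, -2.18) and Zfp42 (-8.49). Between EpiSCs and EpiLCs 5 of the 16 were lower in EpiSCs (Dnmt3a, Dnmt3b, Fgf5, Zic5 and Grhl2) and 1 higher (Sox4), beside 15.5% and 20.4% of all genes. In fPSCs against EpiSCs 6 of the 16 were higher, among them Dnmt3b (1.92) and Fgf5 (2.80), and 1 was lower, beside 13.3% of all genes called higher and 2377 of the 12513 called lower. Of the 3 core factors Pou5f1, Sox2 and Sall4, Sox2 was lower in fPSCs than in mESCs (-2.80). The lists were chosen with results of these data known, so their counts are descriptions.

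The genes whose levels ran most like each member were taken over the 19 libraries among the 9975 genes whose highest library was at 5 FPKM or above. By Pearson's r on log2(FPKM + 1), they were Smim10l2a for Otx2 (0.95), Enc1 for Pou3f1 (0.96), Mplkip for Foxd3 (0.84), Wdr34 for Tcf15 (0.94) and E2f4 for Utf1 (0.95). Sall2 was the fifth gene for Pou3f1 (0.94), Dnmt3l the fourth for Tcf15 (0.93) and Sox3 next after E2f4 for Utf1 (0.92). Among the members Pou3f1 and Utf1 ran most alike (0.81), and the correlations of Tcf15 with the other members lay between -0.09 and 0.01. The libraries share cell states and protocols, so these are descriptions of the 19 libraries and not independent points.

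In the single cells, cells of 4 fPSC clones were transferred 1 by 1 into tubes and sequenced by a Smart-seq2 protocol. The tables held 182 cells, of which 181 had at least 500 genes, with 44 to 46 cells a clone and a median of 19078 to 33883 counts a cell. No pair of cells held identical counts, and 1 cell name was listed 2 times. Utf1 and Otx2 were found in most cells, Pou3f1 and Foxd3 in a minority and Tcf15 in 4 cells. Utf1 had a count in 73.9%, 93.3%, 87.0% and 68.2% of cells in clones 1 to 4, and over all cells in 80.7% (95% exact binomial interval 74.1 to 86.1%, counting error only). Summed per clone it reached 309, 386, 355 and 305 CPM (counts scaled to a common total for each clone), 339 ± 38.9 CPM (SD, n = 4). Otx2 had a count in 58.7%, 75.6%, 73.9% and 59.1% of cells and in 66.9% of all (59.5 to 73.7%), at 139.9, 205, 231 and 273 CPM, 212 ± 55.7 CPM. The clone with the most Otx2 CPM, clone 4, had among the lowest shares of cells, and 1 cell there held 36.4% of the clone's Otx2 counts.

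Pou3f1 had a count in 17.4%, 26.7%, 19.6% and 31.8% of cells in clones 1 to 4 and in 23.8% of all (17.8 to 30.6%), at 34.2 ± 12.2 CPM. Foxd3 had a count in 10.9%, 24.4%, 26.1% and 22.7% of cells and in 20.99% of all (15.3 to 27.7%), at 5.99, 45.6, 49.2 and 18.4 CPM. Tcf15 had a count in 1, 0, 2 and 1 cells, 2.21% of all (0.605 to 5.56%), with 23 of its 28 counts in a single cell. As a background, the 1687 genes under 0.1 FPKM in all 7 bulk fPSC libraries had a median of 1.10% of cells with a count and a 95th percentile of 19.3%. The highest of these genes was found in 96.7% of cells, so the upper end of the set is not a floor of noise. The Tcf15 share lies within that background, and Pou3f1 and Foxd3 lie just above its 95th percentile, which falls within the intervals of both. In clone 3 a single cell held 87 Pou3f1 counts and a single cell 102 Foxd3 counts. Genes within 1.25-fold of the same bulk level were found in more cells than these members, at a median of 44.2% for Pou3f1, 45.9% for Foxd3, 95.6% for Utf1 and 6.63% for Tcf15, while that for Otx2 was 60.2%. The bulk level was the mean FPKM of the 7 fPSC libraries and not of these clones. FPKM is a level per length while the counts are not, and transcript length was not matched.

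Detection followed depth. Cells with an Otx2 count held a median of 39586 counts and those without 14082. Thinned to 5000 counts a cell, which left out 6, 4, 1 and 3 cells of clones 1 to 4, Utf1 was found in 64.7%, Otx2 in 41.9%, Pou3f1 in 12.6%, Foxd3 in 10.2% and Tcf15 in 1.20% of cells, the same order as unthinned. No cell held all 5 members, 11 held 4, 41 held 3, 69 held 2, 47 held 1 and 13 held none, and the median depth rose from 9675 counts in the last to 102253 counts in cells with 4. Utf1 and Otx2 were found together in 105 cells, 86.8% of the Otx2 cells and 71.9% of the Utf1 cells. The shares over all cells were 80.7% for Utf1 and 66.9% for Otx2. Thinned, 64.3% of the Otx2 cells held Utf1 and 41.7% of the Utf1 cells held Otx2, near the 64.7% and 41.9% of all cells. Pou3f1 and Foxd3 were found together in 11 cells, 25.6% of the Pou3f1 cells and 28.9% of the Foxd3 cells. Of the listed endoderm markers, Gata4 had a count in 5 cells (14 counts) and Afp in 1 cell (1 count). The others apart from Foxa2 were not among the single-cell genes. Foxa2 had a count in 39 cells, with 856 counts of which 638 were in clone 3, and cells with Foxa2 were set apart by this gene alone. The summed Otx2 level was 197 CPM in those cells and 233 CPM in the other 142, and that of Utf1 was 211 and 415 CPM, while Foxd3 was at 53.2 and 28.2 CPM and Pou3f1 at 44.5 and 33.5 CPM. By detection Otx2 was found in 79.5% of the Foxa2 cells and 63.4% of the others, with a median depth of 39586 and 21854 counts. Utf1 was found in 87.2% and 78.9%, the opposite direction to its CPM. Foxd3 was found in 30.8% and 18.3%, and Pou3f1 in 20.5% and 24.6%. The Foxa2 cells and the others were not matched for depth or clone.

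**Figure D3:**
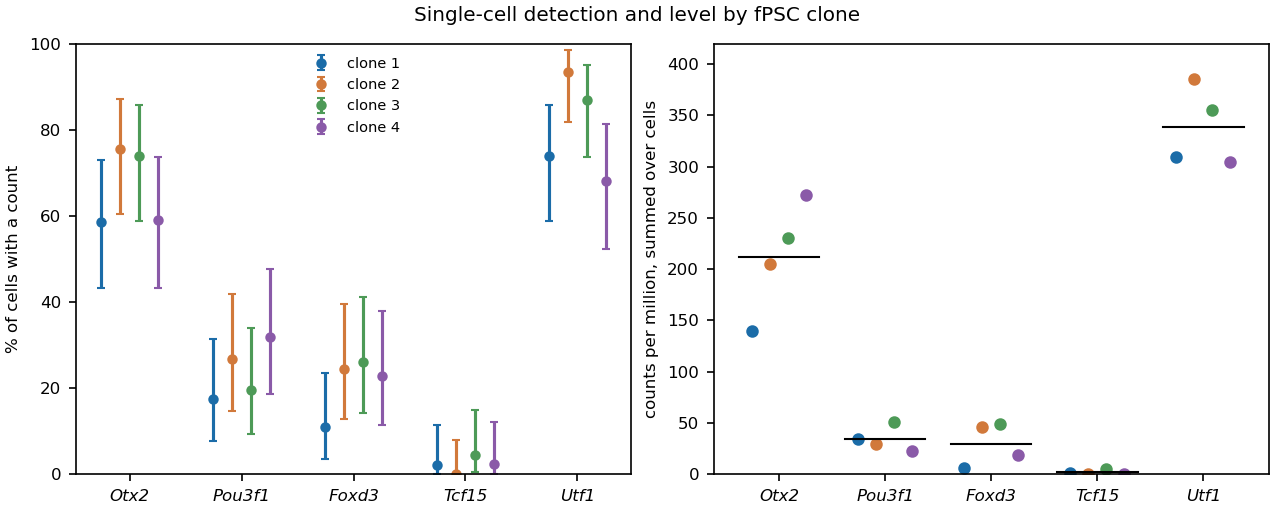
Left, share of cells with at least 1 count of each member in the 4 fPSC clones, with 95% exact binomial intervals. Right, CPM from the counts summed over the cells of each clone, with a line at the mean of the 4 clones, where Utf1 and Otx2 lie above 130 CPM in every clone and the other 3 members below 52 CPM.

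The histone marks and methylation were read in fPSCs at P10. Trimethylation of histone H3 at lysine 4 (H3K4me3) marks active or poised promoters, trimethylation at lysine 27 (H3K27me3) marks Polycomb repression, and CpG methylation is low at active and poised CpG-rich promoters. Each came as 1 file, so there was no replicate and no test, and no input track was used. The values were RPKM per 100 bp bin for the marks, in which 1 read was worth 1.24 RPKM for H3K4me3 and 0.645 RPKM for H3K27me3. Means were taken within 5000 bp of the gene start and ranked among 22072 protein-coding promoters.

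Within 5000 bp of the start, Otx2, Foxd3, Utf1 and Pou3f1 carried more H3K4me3 than Tcf15, and the gap depended on the window. Otx2 averaged 9.002 RPKM of H3K4me3 (731 reads, 95% Poisson interval 8.36 to 9.68), at percentile 99.9. Foxd3 averaged 6.80 RPKM (552 reads) at percentile 99.8, Utf1 4.80 RPKM (390 reads) at 99.1 and Pou3f1 3.41 RPKM (277 reads) at 94.9. Tcf15 averaged 1.54 RPKM (125 reads) at percentile 63.0, with an interval of 1.28 to 1.83 that lay below those of the other 4. The housekeeping gene Gapdh averaged 4.43 RPKM at percentile 98.6, and Rpn1, another widely expressed gene, 2.28 RPKM at percentile 81.9. The Otx2 mark was broad, with reads in 100 of the 101 bins, against 90 at Foxd3, 73 at Pou3f1, 68 at Utf1 and 46 at Tcf15. Within 1000 bp of the start Pou3f1 was at percentile 58.4, Foxd3 at 57.5 and Tcf15 at 55.6, close together, while Utf1 was at 81.9 and Otx2 at 96.1.

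H3K27me3 ranked the members in another order. It averaged 2.24 RPKM at Tcf15 (351 reads, percentile 95.2), 1.79 RPKM at Foxd3 (280 reads, 92.4), 1.42 RPKM at Otx2 (222 reads, 89.0), 0.790 RPKM at Pou3f1 (124 reads, 76.2) and 0.261 RPKM at Utf1 (41 reads, 37.0). The developmental genes Gata4, Pax2 and Pax6 averaged 4.15 to 4.44 RPKM, above all members. Foxa2 averaged 2.68 RPKM, with an interval of 2.43 to 2.95 that overlapped that of Tcf15 (2.01 to 2.49). Gata4 transcripts were at 2.33 FPKM in the P10 library, and Pax2 and Pax6 transcripts at 0.0557 and 0.004 FPKM. Gapdh averaged 0.191 RPKM of H3K27me3. Otx2, Foxd3 and Pou3f1 were at or above the 75th percentile of promoters for both marks, as were 5.13% of all promoters. That held for the 5000 bp window. Within 1000 bp the H3K27me3 percentile was 59.3 at Otx2, 52.1 at Pou3f1 and 73.1 at Foxd3, all below the 75th, and counted from the annotated Otx2 start nearest the highest H3K4me3 that of Otx2 was 28.6. At Otx2 H3K27me3 lay mostly before the start, while H3K4me3 lay on both sides of it. H3K27me3 averaged 2.55 RPKM (198 reads) over the 5 kb before it and 0.308 RPKM (24 reads) over the 5 kb after it, while H3K4me3 averaged 5.67 and 12.4 RPKM. At Foxd3 both marks lay on both sides, with H3K27me3 at 2.31 and 1.30 RPKM and H3K4me3 at 7.19 and 6.49 RPKM. Utf1 held H3K4me3 after the start (8.33 RPKM against 1.22 RPKM before it) and little H3K27me3 on either side. Runs of bins near the start held no read of either mark at Utf1 (8 bins), Pou3f1 and Foxd3 (5 bins each) and Tcf15 (3 bins), and how well reads map there was not tested.

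DNA methylation was low at all 5 starts. The file gives the methylated fraction of 100 bp windows, of which 99.5% on chromosome 19 held a CpG, and it gives no coverage. The median window in the genome was at 0.93. Within 1000 bp of the start the mean fraction was 0.0031 at Pou3f1 (13 windows), 0.012 at Otx2 (15), 0.0206 at Foxd3 (16), 0.0779 at Tcf15 (19) and 0.243 at Utf1 (12), where 32.6% of 21804 promoters were under 0.2. Within 500 bp of the start Utf1 was at 0.0033, and the stretch at 0.2 or below began 37 bp before its start and ran to 2563 bp after it. The 3 Utf1 windows listed from 500 to 900 bp before the start were at 0.88 to 1. The stretch of windows at or below 0.2 around the start was 8700 bp long at Otx2, 5700 bp at Foxd3, 3800 bp at Pou3f1, 2700 bp at Utf1 and 2300 bp at Tcf15. In the printed stretches the windows were at 0 to 0.05 for Otx2 (2 windows), 0 to 0.12 for Foxd3 (3) and 0 for Utf1 (1). Tcf15, at 1.77 ± 0.867 FPKM in fPSCs (SD, n = 7), had a mean fraction at percentile 14.7 of promoters.

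**Figure D4:**
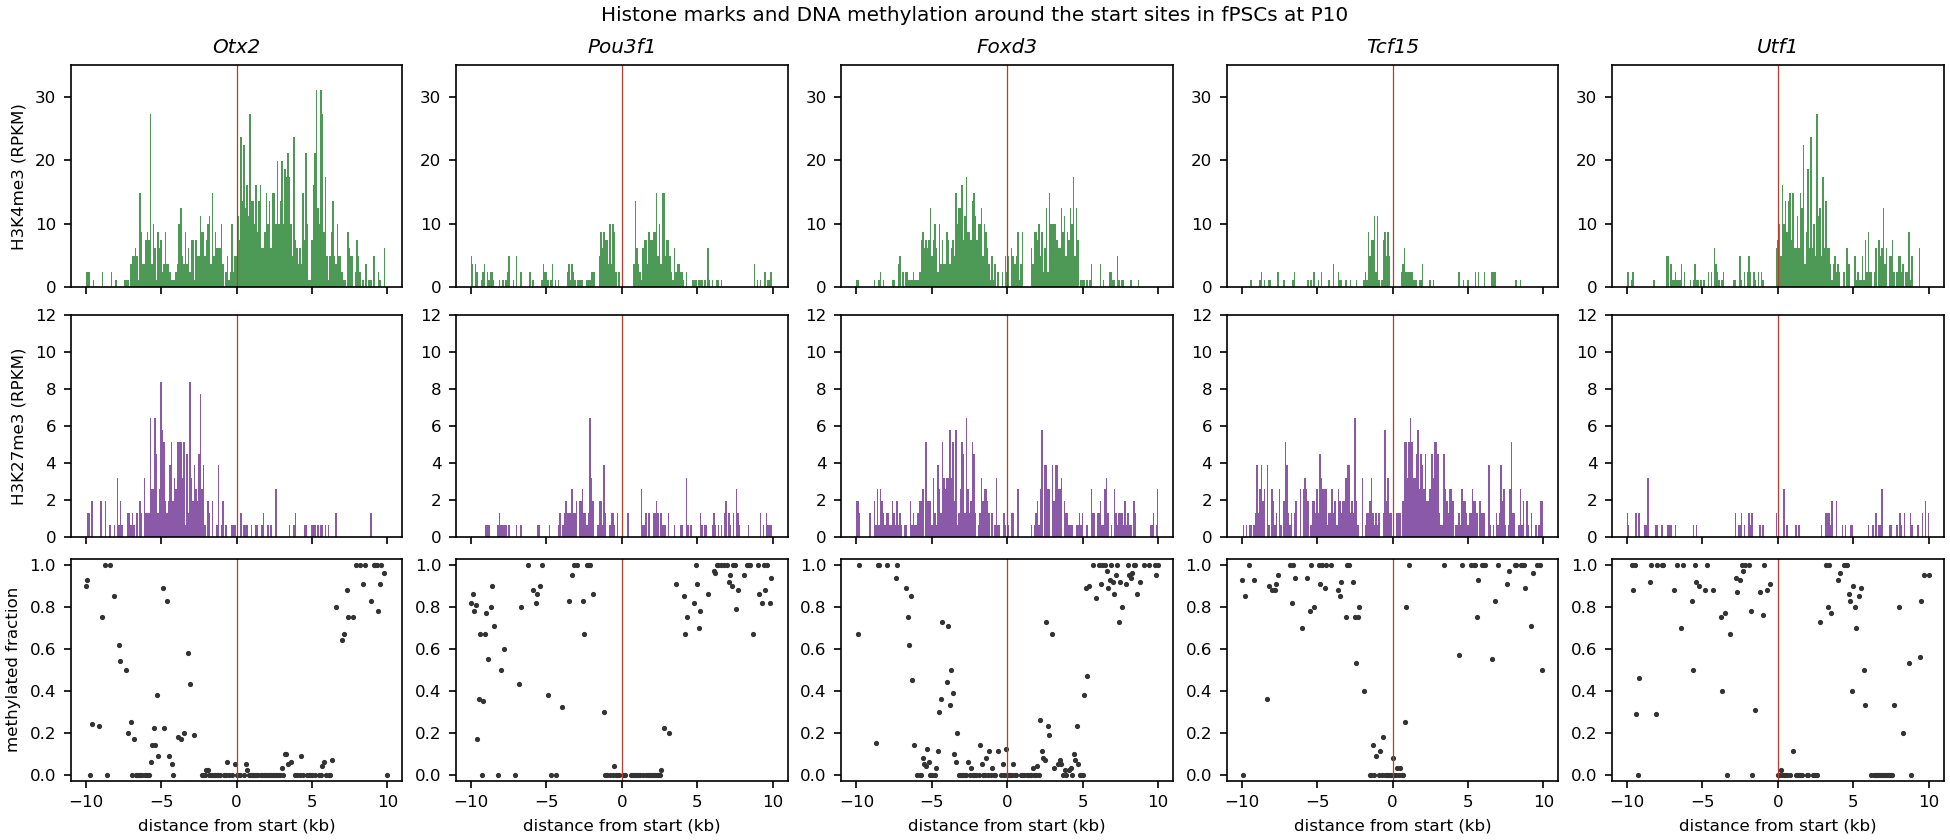
H3K4me3 (top, RPKM per 100 bp bin), H3K27me3 (middle, RPKM) and methylated fraction (bottom, 1 point per listed window) against distance from the gene start in kb, downstream to the right, in fPSCs at P10. The red line is the start, Otx2 shows H3K27me3 before it and H3K4me3 across and after it, Tcf15 shows the least H3K4me3 with H3K27me3 on both sides, and each gene has a low-methylation stretch at its start.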

How the data were processed

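The authors deposited FPKM values per gene for 19 bulk libraries (cutadapt 1.11, TopHat2 2.1.1 and Cufflinks 2.1.1 on mm9 are named in the submitters' processing notes), with strand use in counting not given in the sources used here. They deposited counts per gene and cell for 4 fPSC clones, and whether those are molecules or reads was not given. They deposited RPKM per 100 bp bin for each histone mark (Bowtie2 2.2.2), and a methylated fraction per 100 bp window (BS-Seeker2). The labels list 2 replicates for each of these. The study's methods state that ChIP-seq replicates were merged, and whether the deposited files hold the merged reads, or both methylation replicates, was not given.

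Of 23608 table entries, 4 under symbols listed 2 times were left out. Genes at 1 FPKM in at least 2 libraries were tested on log2(FPKM + 1) with limma 3.58.1 (trend, Benjamini-Hochberg) in 1 fit over 13 libraries without a replicate block, and the script was tested on simulated data. Cells with at least 500 genes were kept, and doublets were not called. Promoter means ran over 5000 bp on either side of the start for marks and 1000 bp for methylation. Intervals cover counting error only. The members, gene lists and rules were chosen with earlier results of these data known. Genes named beside the members were at most 4 of each list by mean FPKM and the 5 of highest r with each member. Other list genes, those called among them and the markers of single libraries, were chosen after their values were seen. Alternatives tried were the pseudocount, the low-value filter, scaling, libraries entering the fit, protocol as a covariate, the block, leaving out libraries, windows and the cell filter.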

Additional observations from a re-analysis of the deposited data

How the results depend on the processing

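Of 525 member values recomputed under the alternatives, 491 kept their direction and side of the threshold, 23 lost the call, 5 gained it and 6 turned direction, none of the 6 called. With only the total RNA-seq fPSCs, or with protocol as a covariate, fPSCs against EpiLCs gave -0.15 for Otx2 and 0.0069 for Utf1. Without a covariate the epiblast-derived lines gave 0.17 for Utf1. Leaving out 1 library at a time, Otx2 in EpiSCs against mESCs ranged from -0.71 to 0.068. Over the same fits with 1 library left out, the number of members called ranged from 2 (without mESC replicate 2) to 4 in EpiSCs against mESCs, 3 (without EpiLC replicate 2 or EpiSC replicate 1) to 4 in EpiSCs against EpiLCs, where all 5 were called with no EpiLC or EpiSC library left out under the main settings, 1 (without EpiLC replicate 1) to 3 in fPSCs against EpiLCs, and 1 (without P10, P20, P30 or 46C P24) to 3 between protocols, where it was also 1 with no filter. The cause was not tested.

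At or above the 90th percentile of promoters, H3K4me3 held 4 members, but 1 within 1000 bp, and H3K27me3 held 2, but 1 within 2500 bp or 1000 bp. Over all genes, calls in fPSCs against EpiLCs numbered 1728, but 3178 with total RNA-seq fPSCs only, 2648 with NEBNext fPSCs only, 3144 with the covariate, and 865 and 890 without EpiLC replicate 1 or 2. Calls in EpiLCs against mESCs fell from 3706 to 2416 and 2291 without mESC replicate 1 or 2, those in EpiSCs against EpiLCs from 4488 to 2871 and 2425 without EpiLC or EpiSC replicate 2, those in fPSCs against EpiSCs from 4041 to 2455 and 1523 without EpiSC replicate 1 or 2, and those of epiblast-derived lines from 99 to 64 with no filter, 50 without the covariate and 32 to 65 without P10, P20, P30 or CMT P11.

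The replicate numbers share only a number. Deviations of same-numbered libraries correlated at 0.20, -0.20 and -0.13, and the replicate block left 3, 4 and 5 members called in EpiLCs against mESCs, EpiSCs against mESCs and EpiSCs against EpiLCs, with 4107, 6685 and 5196 genes. Crossing the EpiSC numbers, chosen after seeing the data, gave 4814, 7059 and 5832 genes. Leaving out 46C P24 and CMT P11 was also chosen then. Depth is unknown for FPKM and for methylation, and with 2 libraries in most groups the spread is largely borrowed from the fPSCs.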
